A study of Homo sapiens with 8 samples.

Results

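The genes described here encode 10 basic helix-loop-helix (bHLH) leucine zipper transcription factors, USF1, USF2, TFEB, TFE3, MITF, MAX, MYC, MLX, MLXIP and MNT, of 20033 protein-coding genes compared with the peaks. They were chosen by name, as factors that recognize the DNA sequence CACGTG, after that sequence had been selected on its measured frequency in promoter peaks of PHF20L1 in these same data. The frequency of the sequence in peaks is therefore given as a description only. The question asked of each gene was whether its own promoter or gene body carried a peak of PHF20 or PHF20L1, and whether the motif lay inside it.

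The peaks came from ChIP-Seq, in which DNA bound by a protein is isolated with an antibody and sequenced, in U2OS, a human osteosarcoma cell line. All groups shared ectopic expression of a protein with a triple HA tag, a short peptide read by the antibody, from a lentiviral vector, and the cells were sorted for GFP. There were 8 samples: 2 HA ChIP and 1 input sample of cells overexpressing N-3xHA PHF20, and 3 HA ChIP and 2 input samples of cells overexpressing tagged PHF20L1, of which 1 ChIP and 1 input carried the N-terminal tag and 2 ChIP and 1 input the C-terminal tag. The peaks are thus those of overexpressed, tagged proteins, and the control was input DNA. The values were peak positions on hg38, 4147 for PHF20 with a median width of 599 bp and 723 for PHF20L1 with a median width of 314 bp. In the authors' list for each protein, a peak was one called in the ChIP sample with the best signal. It also had to overlap a peak of the other sample or samples, called at a looser threshold. Positions and widths are thus those of a single sample. No peak height, read count or spread between replicates was at hand, and sequencing depth could not be taken from positions. A gene without a peak is one at which none passed the authors' thresholds, and weaker binding there was not measured.

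PHF20 and PHF20L1 are related readers of lysine methylation and subunits of the nonspecific lethal (NSL) complex, which carries the acetyltransferase KAT8 to promoters of housekeeping genes. bHLH zipper proteins bind DNA as dimers, the basic region of each partner contacting one side of the E-box, a short palindrome of the form CANNTG, and CACGTG is the form that this family prefers. USF1 and USF2 are ubiquitous activators. TFEB, TFE3 and MITF form the MiT/TFE family and drive lysosomal and autophagy genes, and MITF is also the master regulator of melanocytes. MAX is the obligate partner of MYC, the growth-promoting oncoprotein, and a partner of MNT, a repressor that opposes MYC. MLX is the MAX-like partner of MLXIP (MondoA), a sensor of glucose metabolites.

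Of the 10 genes, only MLX had a promoter peak, and the peak was of PHF20. The sequence of this promoter is shown first because it is the single case in which a peak and an E-box met at one of these genes. The 300 bases upstream of the first annotated MLX transcription start site (TSS), all inside the peak, read on the plus strand of chr17:42566772-42567071 (hg38), with the E-box in capitals, as follows.
MLX: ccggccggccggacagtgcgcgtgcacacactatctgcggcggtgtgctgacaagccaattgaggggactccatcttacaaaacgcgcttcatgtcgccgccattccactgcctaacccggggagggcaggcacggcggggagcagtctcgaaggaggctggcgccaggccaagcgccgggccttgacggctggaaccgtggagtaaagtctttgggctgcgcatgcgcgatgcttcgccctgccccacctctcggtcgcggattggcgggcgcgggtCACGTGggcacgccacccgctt

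The E-boxes upstream of the main TSS of MLX, MLXIP and MNT are set side by side, since they carry the same 6 bases and differ in the flanks and in whether a peak was called. Each is printed 5′ to 3′ on the strand of its gene, 30 bases long, with the E-box in capitals. The MLX site lay at chr17:42567050-42567055, the MLXIP site at chr12:122078383-122078388 and the MNT site at chr17:2401248-2401253 on the minus strand.
MLX E-box: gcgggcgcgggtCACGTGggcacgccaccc
MLXIP E-box: acccgcacccacCACGTGgagccggccggg
MNT E-box: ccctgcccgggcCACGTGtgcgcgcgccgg

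Of the 10 genes, 1 had a PHF20 promoter peak (10%, Wilson 95% interval 1.79% to 40.4%), beside 4148 of 20033 protein-coding genes (20.7%). A promoter peak was one that overlapped the window of at least 1 transcript of the gene, which began 1000 bp before its TSS and ended 500 bp after it. PHF20L1 had a promoter peak at 0 of 10, which allows a share of up to 30%, beside 766 of 20033 (3.82%). With gene bodies included and either list counted, 1 of 10 genes had a peak, beside 4438 of 20033 (22.2%), so no intron or exon of the other 9 genes was covered. The interval of the PHF20 share spans the share of all protein-coding genes, and with 10 genes a lower share cannot be told from an equal one. Intervals and limits here cover counting error only.

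The members had 122 distinct TSSs between them, and the 9 genes without a peak had 113. The merged promoter windows measured 2506 bp in MLX and 2511 bp in MAX, the lowest of the family, and 11838 bp in TFEB, the highest. Their median of 6528 bp was above the median of 3700 bp over all protein-coding genes, and 8 of 10 members exceeded it. The part of window length in the count of peaks was not tested.

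The MLX peak was of usual width and lay over the start of the gene. MLX (ENSG00000108788.12) spans chr17:42567072-42573239 on the plus strand, with 11 transcripts that start at 9 distinct sites. The PHF20 peak covered chr17:42566706-42567274, 569 bp, at the 46.8th percentile of width in the PHF20 list. Its centre lay at −82 of the nearest TSS, and it reached from −394 to +174 of the main TSS, defined as that of the Ensembl canonical transcript. It overlapped the windows of 9 of 9 MLX TSSs and the window of no other protein-coding gene. Starts at −28, −26, −1, 0, 2, 3 and 17 of the main TSS fell inside the peak, and those at 181 and 977 fell beyond its downstream edge.

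The E-box of MLX lay between the centre of the peak and the cluster of starts. It was the only CACGTG in the peak, at −50 of the main TSS and −22 of the nearest one, in sequence annotated as outside the gene. Read with the 2 bases before it, it was GTCACGTG, which on the other strand is CACGTGAC, the 8-base form through which the E-box was selected in the PHF20L1 peaks. Of all promoter peaks, 636 of 3828 for PHF20 held CACGTG (16.6%), and 90 of 673 for PHF20L1 (13.4%). Among the 404 PHF20 promoter peaks within 50 bp of the MLX peak in width, 62 held it (15.3%) and 26 held CACGTGAC (6.44%). Peaks of this width without the motif were thus the usual case in the list.

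The other motifs searched for in the MLX peak were those of widely used promoter factors, and no scan of all known motifs was made. The motifs, each searched on both strands, were chosen after this sequence had been seen, and a match is a string of letters and not a measured site. CGCATGCG, the core of the NRF1 motif, lay at −108 to −101, next to the peak centre. It was present in 10 of the 404 peaks of like width (2.48%) and in 3.36% of protein-coding genes over the same −394 to +174. No other member had it there. CCAAT, the box bound by NF-Y, occurred at −273 and at −66, and was as common elsewhere, in 38.4% of the peaks and 49.5% of genes. CCGCCAT, the YY1 core, lay at −231 to −225 and was found in 21.5% of the peaks and 12.7% of genes. CCGGAAG, the core bound by ETS factors, was at 131 to 137, inside the transcribed region, and 38.9% of the peaks and 17.7% of genes had it. The longer ETS sequence ACTTCCGG was absent from the MLX peak and from the main window of all 10 genes, beside a share of 8.631% over protein-coding genes.

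**Figure D1:**
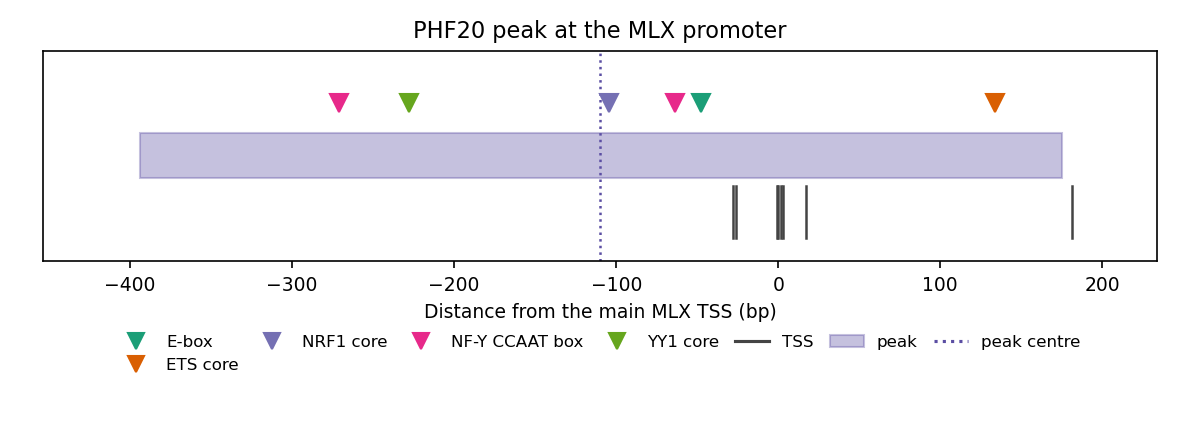
The PHF20 peak at MLX, in bp from the main TSS in the direction of transcription, with triangles for motif matches, black ticks for annotated TSSs and a dotted line for the peak centre. The peak runs from −394 to +174 and the E-box lies at −50, between the NRF1 core at −108 and the cluster of starts.

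MAX (ENSG00000125952.21, chr14:65006174-65102695, minus strand) had no peak of either list. It had 3 CACGTG sites in its main window, the most of any member, and 153 protein-coding genes (0.7637%) had 3 or more. Besides MLX, it was the only member with the ETS core CCGGAAG between −394 and +174. The nearest PHF20 peak was 186869 bp from the closest MAX TSS and the nearest PHF20L1 peak 2713710 bp. The CpG observed/expected ratio of the main windows was 0.784 for MAX and 0.679 for MLX.

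MYC and MNT, the activating and the repressing partner of MAX, had no peak of either list. MYC (ENSG00000136997.22, chr8:127735434-127742951, plus strand) had no CACGTG in any promoter window, over 14 TSSs and 5140 bp. MNT (ENSG00000070444.15, chr17:2384073-2401104, minus strand) had 4, of which 2 lay in its main window, at −193 outside the gene and at 415 in a coding exon. The other 2 were near internal TSSs, in a coding exon and an intron.

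MLXIP (ENSG00000175727.15, chr12:122078756-122147344, plus strand), the partner of MLX, had no peak. It had 3 CACGTG sites, at −373 of the main TSS outside the gene, and beside internal TSSs in a UTR and a noncoding exon. Its main window had the highest CpG ratio of the 10 genes, 0.947. Its site upstream of the main start was thus farther away than that of MLX, at −50, and was not of the 8-base form. The part of distance or flanking bases in the presence or absence of a peak was not tested.

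USF1 (ENSG00000158773.14, chr1:161039251-161045977, minus strand) had neither a peak nor a CACGTG in its windows. Its main window had the lowest GC content and CpG ratio of the family, 50.6% and 0.573. USF2 (ENSG00000105698.16, chr19:35268962-35279821, plus strand) had no peak and the highest GC content, 79.8%, with a CpG ratio of 0.941, second to that of MLXIP. It had 2 CACGTG sites, both in an intron near internal TSSs, with starts 18 bases apart, at chr19:35271468-35271473 and chr19:35271486-35271491. They are shown because they are the closest pair of E-boxes found in these windows.
USF2 E-box 1: gctgaccgggctCACGTGggctgacctttc
USF2 E-box 2: ggctgacctttcCACGTGgcagctgtcatg

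The MiT/TFE genes had no peak of either list. TFEB (ENSG00000112561.19, chr6:41683978-41736259, minus strand) had 4 CACGTG sites and none in its main window. They lay in a coding exon, in UTR sequence at 2 places and outside the gene at −1229 of the main TSS, which is −578 of an alternative start. TFE3 (ENSG00000068323.17, chrX:49028726-49043410, minus strand) and MITF (ENSG00000187098.18, chr3:69739456-69968336, plus strand) had none. MITF had the most starts of the family, 19 in 6 separate windows, and 14 CANNTG sequences in its main window, the most of any member.

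Over the family, 17 CACGTG sites lay in the windows of 6 members and 1 of the 17 was inside a peak. The annotation placed 6 outside the gene, 4 in UTRs, 3 in coding exons, 3 in introns and 1 in a noncoding exon. In the main window the motif was found in MAX (3 sites), MNT (2), MLX (1) and MLXIP (1), 4 of 10 genes beside 4813 of 20033 (24.0%). The 8-base form was in 5.271% of the main windows of protein-coding genes. In the 300 bases around the RefSeq promoter (GRCh38.p14), which matched 9 members, CACGTG was present in MLX and MNT, beside 7.256% of 35116 RefSeq promoters.

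**Figure D2:**
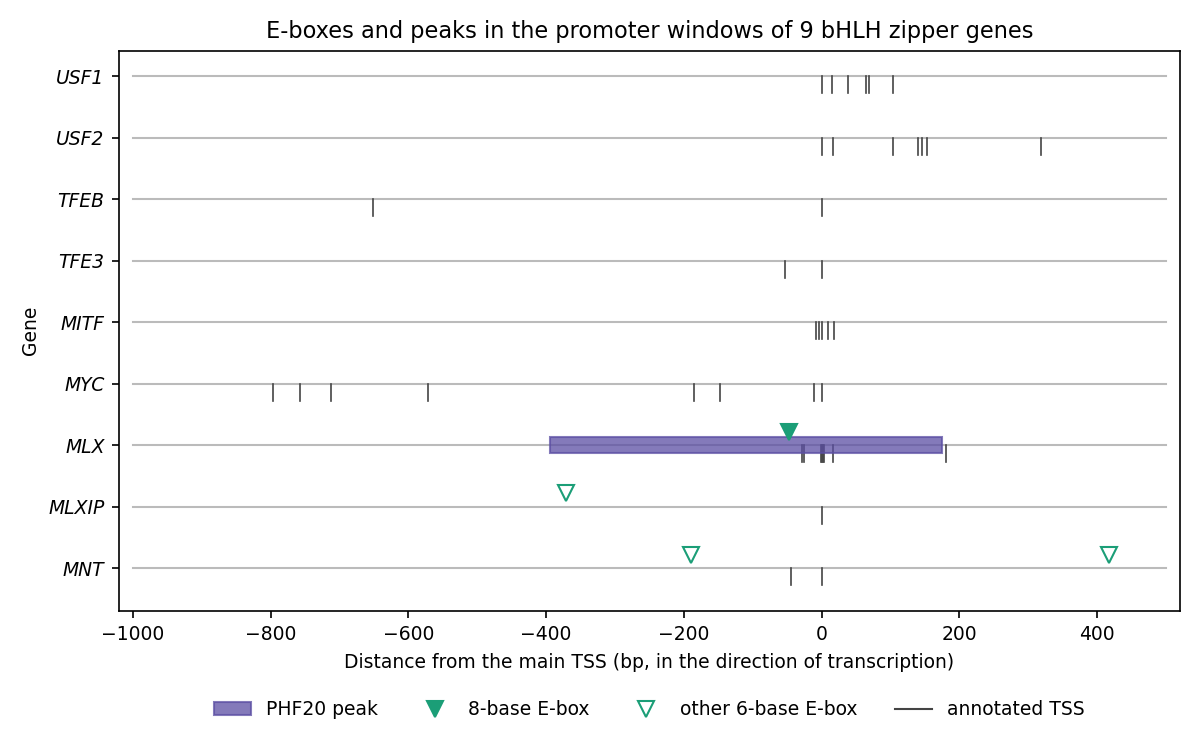
Main promoter windows of 9 of the genes, MAX not drawn, in bp from the main TSS in the direction of transcription, with filled triangles for the 8-base E-box, open triangles for other CACGTG sites, ticks for TSSs and a bar for a peak. The single bar is the PHF20 peak of MLX, from −394 to +174, with the E-box at −50 inside it.

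The share of protein-coding genes with a peak, by the number of CACGTG in the main window, is a description only. The motif was selected on its frequency in the PHF20L1 promoter peaks of these data. A PHF20 promoter peak was found at 19.5% of the 15220 genes with 0 sites, 22.9% of 3882 with 1, 29.9% of 778 with 2 and 37.9% of 153 with 3 or more. For PHF20L1 the shares were 3.59%, 3.76%, 7.58% and 9.15%, and the intervals of the classes with 0 sites (3.31% to 3.9%) and 1 site (3.21% to 4.41%) overlapped. MLX belonged to the class with 1 site and MAX to the class with 3 or more. CACGTG itself holds a CpG, and the part of CpG content in these shares was not tested.

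The MLX peak was denser in CpG than most. Its GC content was 70.7% beside a median of 63.17% over PHF20 promoter peaks, and its CpG observed/expected ratio of 0.89, from 63 CpGs, was at percentile 77.53 beside a median of 0.7934. The ratio divides the number of CpGs by that expected from the C and G content. Over the wider main window the ratio of MLX was 0.679. The ratios of the 10 main windows ranged from 0.573 to 0.947 with a median of 0.7738. Genes with a PHF20 promoter peak had a median of 0.7434 (quartiles 0.6655 and 0.8226), and those without a peak of either list 0.629 (0.301 and 0.7666). Of the members, 5 lay between the quartiles of the genes with a PHF20 peak, 3 above and 2 below. MLX was among the 5, and of the 9 genes without a peak TFE3, MITF, MAX and MYC were. The part of CpG content in the presence or absence of a peak was not tested.

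**Figure D3:**
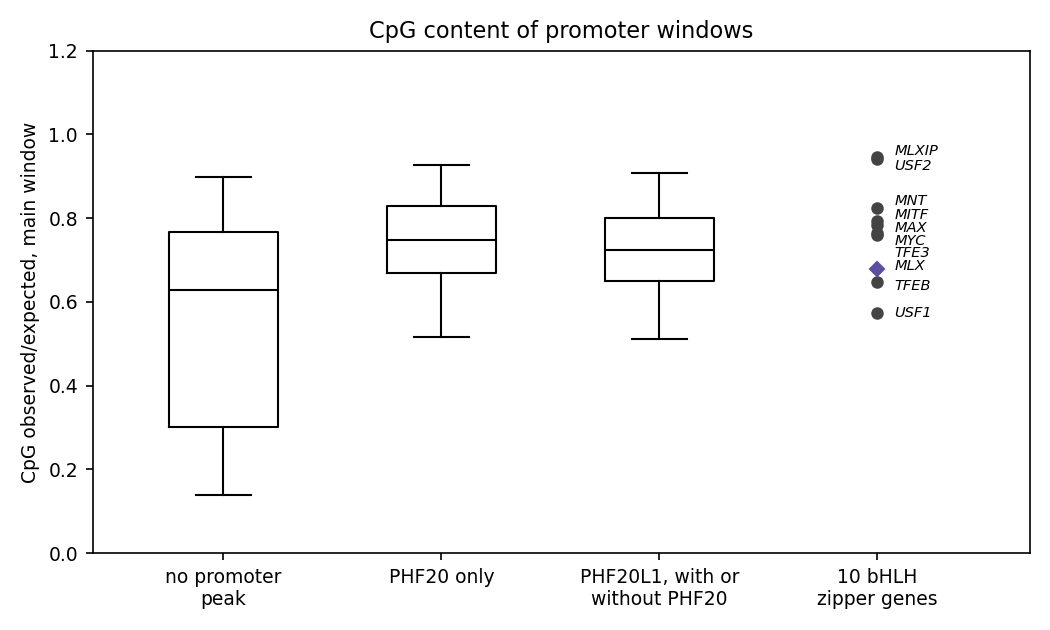
CpG observed/expected ratio of the main promoter window by gene, with boxes for the quartiles and median of protein-coding genes with no promoter peak, a PHF20 peak only, or a PHF20L1 peak, and whiskers from the 5th to the 95th percentile. The 10 bHLH zipper genes are points, from 0.573 for USF1 to 0.947 for MLXIP, with MLX as a diamond at 0.679.

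Beyond the windows, the genes next closest to a peak were MLX for PHF20L1 and TFE3 for PHF20. The nearest PHF20L1 peak of MLX, 251 bp wide at chr17:42561630-42561880, began 5192 bp from the closest MLX TSS and lay in the promoter of COASY, which makes coenzyme A. It held no CACGTG. For TFE3 the nearest PHF20 peak was 36216 bp away and the nearest PHF20L1 peak 36297 bp. Both were shared by WDR45, an autophagy gene, and a gene model without a symbol in the annotation. TFEB was 50984 and 51178 bp from the peaks shared by FRS3 and TOMM6. MLXIP was 129917 and 130628 bp from those shared by VPS33A, a lysosomal fusion gene, and another gene model without a symbol. In these 3 genes the nearest peaks of the lists lay together. USF1 was 86437 bp from a PHF20 peak at DEDD and 108041 bp from a PHF20L1 peak at UFC1, and USF2 266911 bp from TMEM147 and 350843 bp from RBM42.

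MITF and MYC were the members farthest from a PHF20 peak. The nearest PHF20 peak was 1646169 bp from MITF, at FOXP1, and 2171599 bp from MYC, at no protein-coding promoter, the 94.9th and 96.5th percentile of distance among protein-coding genes. The nearest PHF20L1 peaks were 12183014 bp from MITF and 2643387 bp from MYC. MNT was 51440 bp from a PHF20 peak at SGSM2 and TSR1 and 4841539 bp from a PHF20L1 peak at GABARAP. The median distance of the members was 108177 bp for PHF20 and 240736 bp for PHF20L1, beside 85750 and 887245 bp over protein-coding genes. Of 64 other protein-coding genes within 100 kb of the members, 13 had a PHF20 promoter peak (20.31%, beside 20.7% of all protein-coding genes). A PHF20L1 promoter peak was found at 7 of the 64 (10.94%, beside 3.82%). Genes that shared a peak were each counted. FRS3 and TOMM6 shared a PHF20L1 peak, and WDR45 and VPS33A each shared one with a gene model without a symbol. The PHF20L1 peak at VPS33A itself lay 118912 bp from the MLXIP gene body. MITF and MYC had 0 protein-coding neighbours, with or without a peak, within 100 kb.

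**Figure D4:**
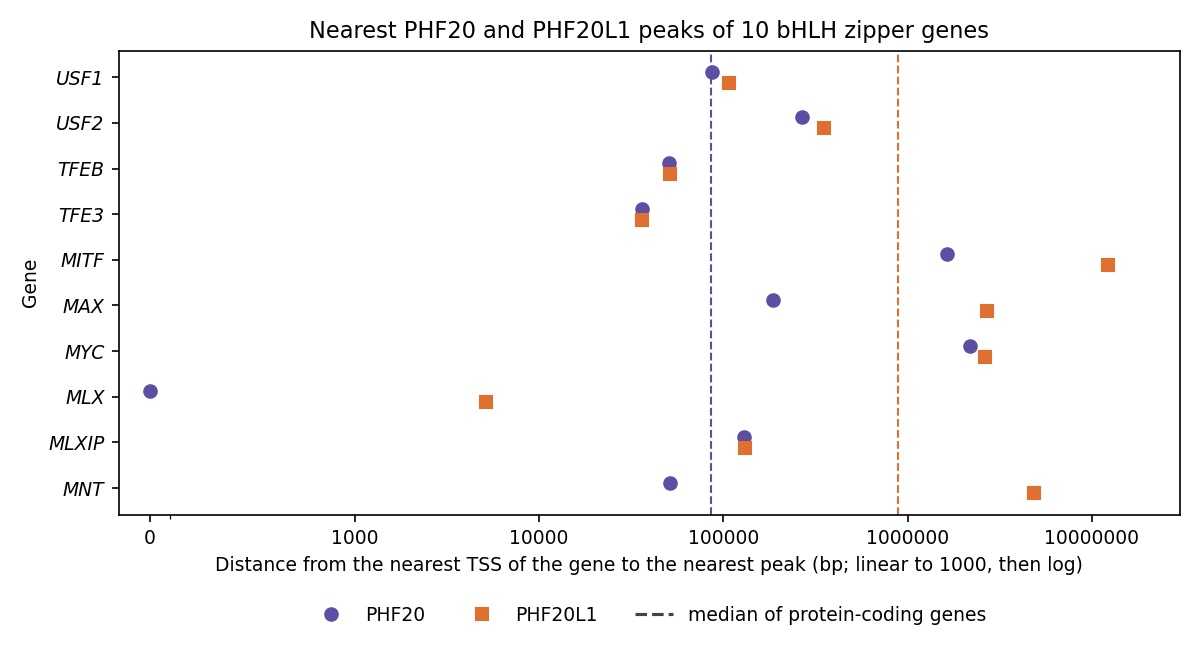
Distance in bp from each gene's nearest TSS to the nearest PHF20 peak (circles) and PHF20L1 peak (squares), on an axis that is linear to 1000 bp and logarithmic beyond, with dashed lines at the medians of protein-coding genes. MLX is at 0 bp for PHF20 and 5192 bp for PHF20L1, and the farthest PHF20 distances are those of MITF and MYC, 1646169 and 2171599 bp.

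Related factors were counted in the same way, beside shares of 20.7% for PHF20 and 3.82% for PHF20L1 over all protein-coding genes. Of 13 other bHLH zipper genes, MXD1, a partner of MAX and MLX, had a PHF20 promoter peak (7.69%), and TFAP4 had a PHF20L1 promoter peak without a PHF20 one (7.69%). The MXD1 peak was 292 bp wide and held 1 CACGTG, and the TFAP4 peak was 240 bp wide and held 0. Of 20 genes of other bHLH and PAS factors and of their inhibitors, ARNT2 and TCF4 had a PHF20 promoter peak (10%), and TCF4 a PHF20L1 promoter peak (5%).

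Genes that control TFEB, TFE3 and MITF made up another list. The Rag GTPases, their LAMTOR anchor and FLCN bring MTORC1 and the MiT/TFE factors to the lysosome, where phosphorylation keeps the latter out of the nucleus. Of 15 such genes, 10 had a PHF20 promoter peak (66.7%, Wilson 95% interval 41.7% to 84.8%, beside 20.7% of all protein-coding genes). They were FLCN, FNIP1, RRAGA, RRAGB, LAMTOR1, LAMTOR3, LAMTOR5, MTOR, RPTOR and MLST8. PHF20L1 had a promoter peak at 4 of the 15 (26.7%, beside 3.82%), FLCN, LAMTOR3, LAMTOR5 and RPTOR. The list was drawn up with results of these data known, so its share and interval are a description and no test against all protein-coding genes. Its PHF20 peaks were 417 to 1240 bp wide with a median of 938.5 bp, where the MLX peak had 569 bp. CACGTG was present in the PHF20 peaks of 4 of the 10, RRAGB with 3 sites and FLCN, LAMTOR1 and LAMTOR5 with 1 each. Beside this, 16.6% of all PHF20 promoter peaks held it, and 21.68% of those at least as wide as the list median. The FLCN site, at chr17:17237683-17237688, was inside the peaks of both lists and, like a site of RRAGB at chrX:55717724-55717729, read as the 8-base form in each direction, as their sequences show.
FLCN E-box: ccttctccgcgtCACGTGacggccgtctcc
RRAGB E-box: ggtagcggcagtCACGTGacagactccggg

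Of 14 regulators and cofactors of MYC, MAX and MNT, 5 had a PHF20 promoter peak (35.7%, Wilson 95% interval 16.3% to 61.2%, beside 20.7% of all protein-coding genes). They were SKP2, a ubiquitin ligase subunit, TRRAP and RUVBL1, subunits of acetyltransferase complexes, ZBTB17 (MIZ1), through which MYC represses, and WDR5, a cofactor of MYC that is also an NSL subunit. RUVBL1 alone had a PHF20L1 promoter peak (7.14%, beside 3.82%). Some peaks of these lists also lay in the promoter window of another protein-coding gene and cannot be assigned to either. They were those of RRAGA (shared with SAXO1), SKP2 (LMBRD2) and 1 of the RUVBL1 peaks (EEFSEC), and those of FLCN, FNIP1 and RPTOR, each shared with a gene model without a symbol in the annotation.

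**Figure D5:**
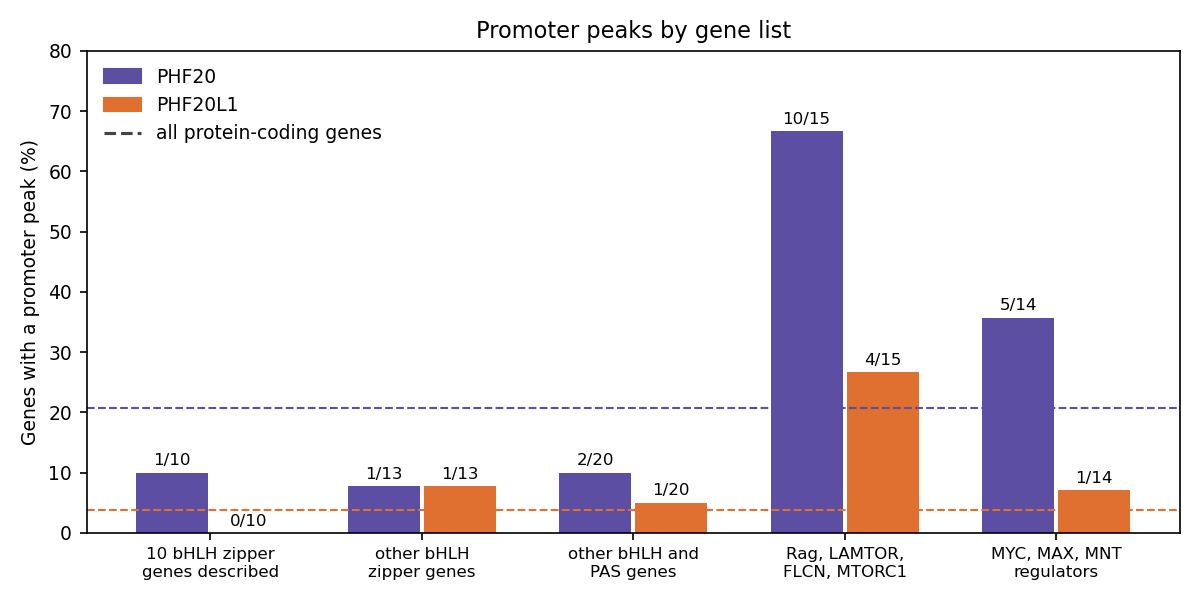
Percentage of genes with a PHF20 (purple) or PHF20L1 (orange) promoter peak in the 10 bHLH zipper genes and in related gene lists, with the counts above the bars and dashed lines at the shares of all protein-coding genes, 20.7% and 3.82%. The bHLH zipper genes stand at 1 of 10 and 0 of 10, and the Rag, LAMTOR, FLCN and MTORC1 genes at 10 of 15 and 4 of 15.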

How the data were processed

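HA ChIP-Seq peaks of PHF20 and PHF20L1 in U2OS cells were analysed. Per the labels, reads were mapped to hg38 with Bowtie version 1.1.2 and peaks called with MACS2 version 2.2.7.1. The authors kept unique, deduplicated reads, compared each ChIP with its input, removed blacklisted regions and a PHF20 replicate with few peaks, and combined the replicates. The deposited values are peak starts and ends in bp, with no count or score. No library depth or replicate spread could be computed.

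Coordinates are on hg38, counted from 1. Transcripts came from GENCODE release 44, later than the authors' release. Promoter windows ran from 1000 bp upstream to 500 bp downstream of each TSS, and an overlap of 1 bp counted. Motifs were counted on both strands of hg38. Shares have Wilson 95% intervals, and a count of 0 allows 3 counts. Python 3.11.15, numpy 2.4.6, pysam 0.24.0 and matplotlib 3.10.9 were used, and the steps were tested on simulated data. Alternatives were other TSS sets, windows, peak widths and motif forms.

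The members and gene lists were chosen with earlier results of these data known, so no test was made. Named genes are all members, those at a member's nearest peak, and those with a promoter peak in the related lists. RNA levels were not analysed here, and 1 E-box is not reported here.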

Additional observations from a re-analysis of the deposited data

How the results depend on the processing

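The counts of members with a PHF20 promoter peak (1 of 10) and a PHF20L1 promoter peak (0 of 10) were the same with the outermost TSS only, protein-coding transcripts only, 500 bp on each side, 2000 bp upstream to 1000 bp downstream, and the peak centre in place of any overlap. With gene bodies extended by 5000 bp, the count with either peak was still 1. When narrow peaks, those below their list's median width, were dropped, 0 members had a PHF20 peak, 0 had either peak and 0 had a PHF20 peak with CACGTG, because the MLX peak (569 bp) is under the PHF20 median (599 bp). The share of protein-coding genes moved from 20.71% for PHF20 to 17.79% with the outermost TSS, 19.98% with protein-coding transcripts and 12.06% with wide peaks, and from 3.824% for PHF20L1 to 3.215% with the outermost TSS and 2.112% with wide peaks. The share of PHF20 promoter peaks with the motif was 16.61% for CACGTG, 6.27% for CACGTGAC, 82.29% for CANNTG, 12.7% within 250 bp of the centre and 21.68% in wide peaks, and for PHF20L1 13.37%, 8.47%, 68.35%, 12.48% and 16.76%. The order of the lists thus changed for CACGTGAC. PHF20 peaks were wider, with a median of 599 bp beside 314 bp for PHF20L1, so shares over whole peaks compare unequal lengths. Within 250 bp of the centre the CACGTG shares, 12.7% and 12.48%, were close. The part of width in the order was not tested. Under alternatives chosen after seeing the data, the Rag, LAMTOR, FLCN and MTORC1 genes with a PHF20 promoter peak were 9 with the outermost TSS, 8 with wide peaks and 10 otherwise. No paired analysis was possible because the lists hold no values for single replicates.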

Other observations

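At 4 of the 10 genes, the nearest PHF20L1 peak held the 8-base E-box CACGTGAC, in each case at the promoter of another gene. The peak at VPS33A and a gene model without a symbol, nearest MLXIP, held 2 sites. Those at PDE12, nearest MITF, ZFYVE26, nearest MAX, and GABARAP, nearest MNT, held 1 each. Their distances from the members ranged from 130628 bp for MLXIP to 12183014 bp for MITF, and 8.47% of all PHF20L1 promoter peaks held the sequence, which had been selected on its frequency in these peaks. The nearest PHF20 peak held it at 2 of the 10 genes, MLX with 1 site and MLXIP with 2, and 6.27% of all PHF20 promoter peaks did. These counts are a description and no measure of enrichment near the members. Apart from the PHF20 peak of MLX, the peaks lay at other genes.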
